A study of Mus musculus with 8 samples.

Results

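The comparison set RNA of Treg against RNA of nonTreg, both CD4+ T cells taken from the ischemic brain of wild-type (WT) mice at day 14 after stroke onset. Each group was 1 sample on 1 array, so the comparison used 2 of the 8 arrays of the study, chosen by their sample titles. A pair of spleen arrays, Treg and nonTreg of untreated mice with an intact spleen, was used beside it, again with 1 array per group, and the other arrays, of whole brain tissue, were not used. All arrays were one-colour Agilent arrays, on which total RNA labelled with Cy3 binds to probes for mouse genes and each spot's brightness is the signal. The labels do not give the number of animals behind a sample, whether animals were pooled, their age, how the stroke was made, or how Treg and nonTreg were separated. With 1 array per group there is no replicate, no test and no p-value, and every value below describes these 2 arrays.

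Regulatory T cells (Treg) are CD4 T cells that depend on the transcription factor Foxp3 and restrain other immune cells, through the consumption of IL-2, through inhibitory receptors such as CTLA-4, and through TGF-beta that they hold on their surface in a latent form. Treg of non-lymphoid tissues carry in addition the IL-33 receptor ST2 and can make the epidermal growth factor family ligand amphiregulin. Conventional CD4 T cells, the usual meaning of nonTreg, include the helper lineages that make interferon gamma, IL-17, IL-4 or IL-21, and they are the main source of IL-2.

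Signals are Agilent's processed signals in arbitrary units, as printed by the scanner software. Before the 2 arrays were compared, each was scaled by its 75th percentile over the probes well above background on all 4 T cell arrays, which was 1110 in brain Treg and 1022 in brain nonTreg. A difference is the log2 of the scaled Treg signal over the scaled nonTreg signal, so 1 is 2-fold, positive values are higher in Treg, and each gene is read from its probe with the highest mean signal. Where a probe was well above background on 1 array only, the fold is a lower bound, written as at least, set by the lowest signal that was well above background on the dim array or, if higher, the dim probe's own signal.

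By these rules 13770 genes were compared, 12790 of them measured on both brain arrays, 599 known by a bound because nonTreg was dim and 381 because Treg was dim. At 2-fold, 635 genes were higher in brain Treg (4.61% of those compared) and 394 were lower (2.86%), while 12741 lay within 2-fold. The median difference of all compared genes was 0.01, with quartiles at -0.20 and 0.25. Differences of 4-fold or more were found in 73 genes higher in Treg and 75 lower. Across genes, which are not independent replicates, the scaled log2 signals of the 2 arrays had a Pearson correlation of 0.985. Most of the transcriptome thus lay close to the diagonal, as the plot of the 2 arrays shows.

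**Figure D1:**
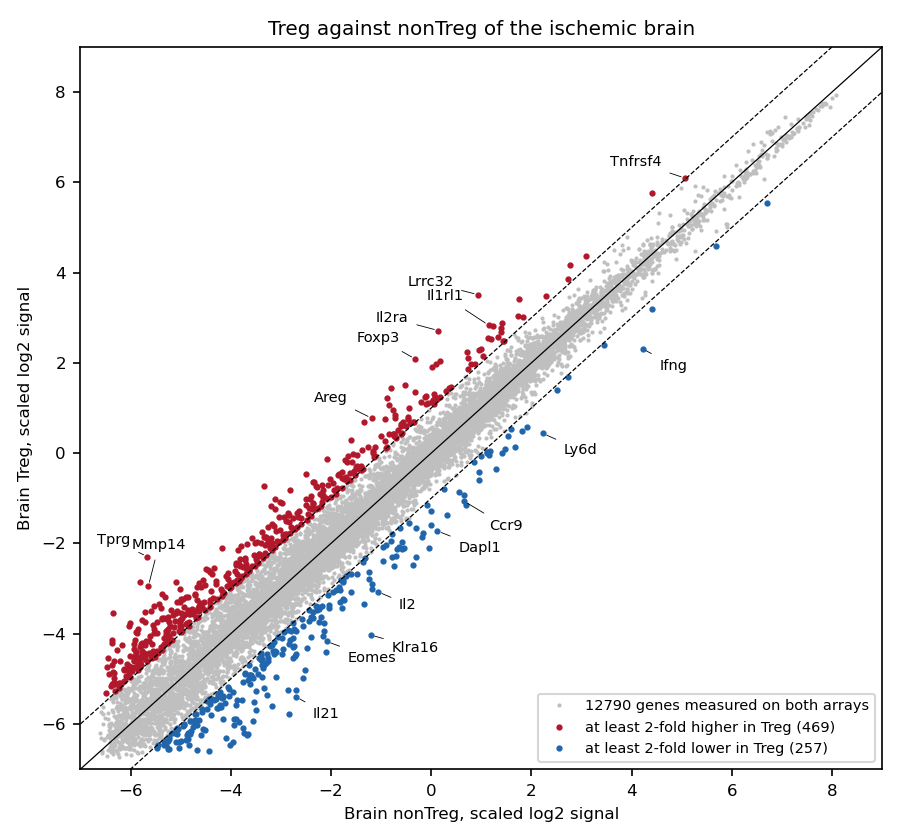
Scaled log2 signal (array's 75th percentile at 0) of brain nonTreg on the x axis and of brain Treg on the y axis, 1 point per gene measured on both arrays. Dashed lines mark 2-fold, red points the 469 genes higher in Treg and blue points the 257 genes lower. Foxp3, Il2ra and Lrrc32 stand above the diagonal at high signal and Ifng below it, and the cloud widens towards low signals.

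The width of that cloud depended on signal. Among the dimmest 3198 of the 12790 genes measured on both arrays, 11.7% differed 2-fold and the SD of the difference across genes was 0.65, against 1.72% and 0.32 among the brightest 3198. Replicate spots of one probe on the same array had a median SD of 0.039 log2 units in brain Treg and 0.040 in brain nonTreg, rising to 0.146 and 0.155 for probes with a mean signal under 100. The error of a difference from the scanner software's own error model was 0.20 for Foxp3, Areg and Ifng and 0.28 for Mmp14. These errors cover the array surface only and not the animals or the preparation of the cells. Of 150 further probes of 137 genes at 2-fold, 146 had the same sign as the probe used, 88 were at 2-fold in the same direction, 4 had the opposite sign and 0 were at 2-fold in the opposite direction. Above the median of mean signal, 115 of 6395 genes were 2-fold higher in Treg (1.8%) and 40 were 2-fold lower (0.625%), and all 54 further probes of such genes had the same sign. Another background correction (normexp, which adds an offset and shrinks dim differences) was run on the 149 genes at 2-fold that were fixed, picked by rule or list members. It kept the direction of all 149 and left 101 of them at 2-fold. Among those that dropped under it were Itgb8, Thbs1, Cd40lg, Sostdc1, Il22, Il5, Hmox1, Lpl, Scd1, P2ry12, Sall1, Kif20a, Bub1, Klra4, Klra9, Ncr1, Ms4a1, Cdh5, Npy, Tph1, Sco1 and Serpina9.

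The labelled cell types were checked against the genes that define them. Foxp3 had a signal of 4717 in brain Treg and 820.5 in brain nonTreg, against spleen signals of 7016.7 for Treg and 9.7 for nonTreg, the last not above background. Treg were thus higher than nonTreg for Foxp3 in both organs, and the brain nonTreg array held a measured Foxp3 signal where the spleen nonTreg array did not. Cd3e, a chain of the T cell receptor complex, had signals of 28867.6 in brain Treg and 31235.6 in brain nonTreg. Cd4 had signals of 7580.1 and 11187.4. None of the 14 T cell genes examined differed 2-fold between the brain arrays, their median difference was -0.20, and their summed signals were 323479 in Treg and 329063 in nonTreg.

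The promoters of 4 genes are printed because their genes carry the contrast in both directions: Foxp3, which defines Treg, Il2ra, the high-affinity chain of the IL-2 receptor, Areg, which encodes amphiregulin, and Ifng, which encodes interferon gamma. The sequences are from RefSeq (build GRCm38.p6) and run from 250 bases before to 50 bases after the annotated start of the gene, 5′ to 3′ on the gene's own strand. Foxp3 had 2 promoters listed, of which the first is printed and searched, and Il2ra, Areg and Ifng had 1 each. Foxp3 lies at chrX:7579426-7579725, Il2ra at chr2:11642542-11642841, Areg at chr5:91139349-91139648 and Ifng at chr10:118440796-118441095, all on the + strand. Capitals mark matches to the motifs searched.
Foxp3: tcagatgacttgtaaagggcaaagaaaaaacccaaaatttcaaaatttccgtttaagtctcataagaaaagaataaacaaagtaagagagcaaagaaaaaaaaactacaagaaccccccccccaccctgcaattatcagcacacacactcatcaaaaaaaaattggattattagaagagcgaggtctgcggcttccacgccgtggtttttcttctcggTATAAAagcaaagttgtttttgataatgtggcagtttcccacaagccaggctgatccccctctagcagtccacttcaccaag
Il2ra: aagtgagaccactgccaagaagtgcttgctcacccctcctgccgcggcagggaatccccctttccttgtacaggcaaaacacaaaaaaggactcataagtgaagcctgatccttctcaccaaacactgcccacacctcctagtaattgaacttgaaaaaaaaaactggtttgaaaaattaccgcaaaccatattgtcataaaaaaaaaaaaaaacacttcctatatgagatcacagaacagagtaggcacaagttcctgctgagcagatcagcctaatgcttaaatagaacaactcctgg
Areg: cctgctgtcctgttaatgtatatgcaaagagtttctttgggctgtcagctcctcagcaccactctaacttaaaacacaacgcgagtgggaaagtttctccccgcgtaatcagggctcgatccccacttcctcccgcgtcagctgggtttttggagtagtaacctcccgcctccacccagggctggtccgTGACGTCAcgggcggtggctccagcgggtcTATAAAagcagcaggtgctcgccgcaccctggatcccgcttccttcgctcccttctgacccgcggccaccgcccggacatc
Ifng: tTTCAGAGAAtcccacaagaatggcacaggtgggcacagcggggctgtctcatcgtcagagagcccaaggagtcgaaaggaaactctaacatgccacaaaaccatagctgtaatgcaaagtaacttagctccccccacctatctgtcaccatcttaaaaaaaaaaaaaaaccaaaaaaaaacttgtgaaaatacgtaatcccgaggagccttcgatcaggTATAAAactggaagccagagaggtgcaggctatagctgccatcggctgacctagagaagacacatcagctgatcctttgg
The motifs, searched on both strands with overlaps between motifs allowed, were a STAT motif (TTCNNNGAA), a Runx motif (TGTGGT), a forkhead motif (TGTTTAC), a T-box motif (TCACACCT), a cyclic AMP response element (TGACGTCA) and a TATA motif (TATAAA). Foxp3, Areg and Ifng each held 1 TATA motif, at bases 219, 220 and 221 of the printed sequence, Areg held 1 cyclic AMP response element at base 190, and Ifng held 1 STAT motif at base 2. The Il2ra sequence held none of the 6 motifs. Among the 27025 promoters of this length in the table, 14.2% held the TATA motif, 1.88% the cyclic AMP response element and 8.47% the STAT motif. The TATA motif was in 14.2% of the 485 promoters of genes at least 2-fold higher in brain Treg, in 10.6% of the 301 promoters of genes at least 2-fold lower, and in 8.34% of the 10980 promoters of all compared genes. In the same order, the STAT motif was in 7.01%, 7.97% and 7.14% of the 3 sets, the cyclic AMP response element in 1.24%, 0.997% and 3.19%, and the Runx motif in 18.6%, 18.9% and 13.4%. The forkhead motif was in 1.86%, 3.65% and 2.62%, and the T-box motif in 1.24%, 1.99% and 0.965%. These matches describe letters in a window and are not binding sites.

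Genes that define Treg were higher in the Treg array. Of the 25 Treg identity genes compared, 15 were 2-fold higher in brain Treg, 0 were 2-fold lower and 24 had a difference above 0, with a median of 1.16. Over all compared genes, 4.61% were 2-fold higher and 2.86% were 2-fold lower. The counts of every list below are to be read beside these shares. The highest were receptors and transcription factors of the Treg programme. Lrrc32, which encodes GARP, the surface anchor of latent TGF-beta, had signals of 12659.5 in Treg and 1955.9 in nonTreg, 5.96-fold higher. Il2ra had signals of 7299.5 and 1128.6, 5.95-fold higher, and Foxp3 was 5.29-fold higher. Among genes above the median signal these 3 had the largest differences in favour of Treg, with Ikzf4, Spp1 and Itgae next.

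Ikzf4 (Eos) and Ikzf2 (Helios) are Ikaros family transcription factors of Treg. Ikzf4 had signals of 3033.9 in Treg and 589.2 in nonTreg, 4.74-fold higher. Ikzf2 had signals of 4366.8 and 1089.8, 3.69-fold higher. Itgae, the alpha chain of CD103, which binds E-cadherin, had signals of 1802.3 and 402.6, 4.12-fold higher. Both brain arrays measured each of these 3 genes, while Itgae was not well above background in spleen nonTreg. Swap70, a signalling adaptor, and Gpr83, an orphan receptor of Treg, differed by 2.04 and 1.93 on the log2 scale.

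The secreted and surface effectors of Treg were higher by a smaller margin. Il10 had signals of 1449.5 in Treg and 508.7 in nonTreg, 2.62-fold higher. Ebi3, the beta subunit of IL-35, had signals of 5462.7 and 2022.7, 2.49-fold higher. Ctla4, the inhibitory receptor for CD80 and CD86, had signals of 4023.4 and 1707.7, 2.17-fold higher. The 10 identity genes that did not reach 2-fold included Tnfrsf18 (GITR) at 0.85, Nrp1 at 0.81, Tigit at 0.78, the ectonucleotidases Nt5e at 0.40 and Entpd1 at 0.29, Icos at 0.21 and Il2rb at -0.05. In the spleen pair, 23 of the same 25 genes were 2-fold higher in Treg, where 5.34% of all 12649 genes compared were, and the list's median was 3.08. The 2 pairs share no array, and the difference between them was not tested.

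**Figure D2:**
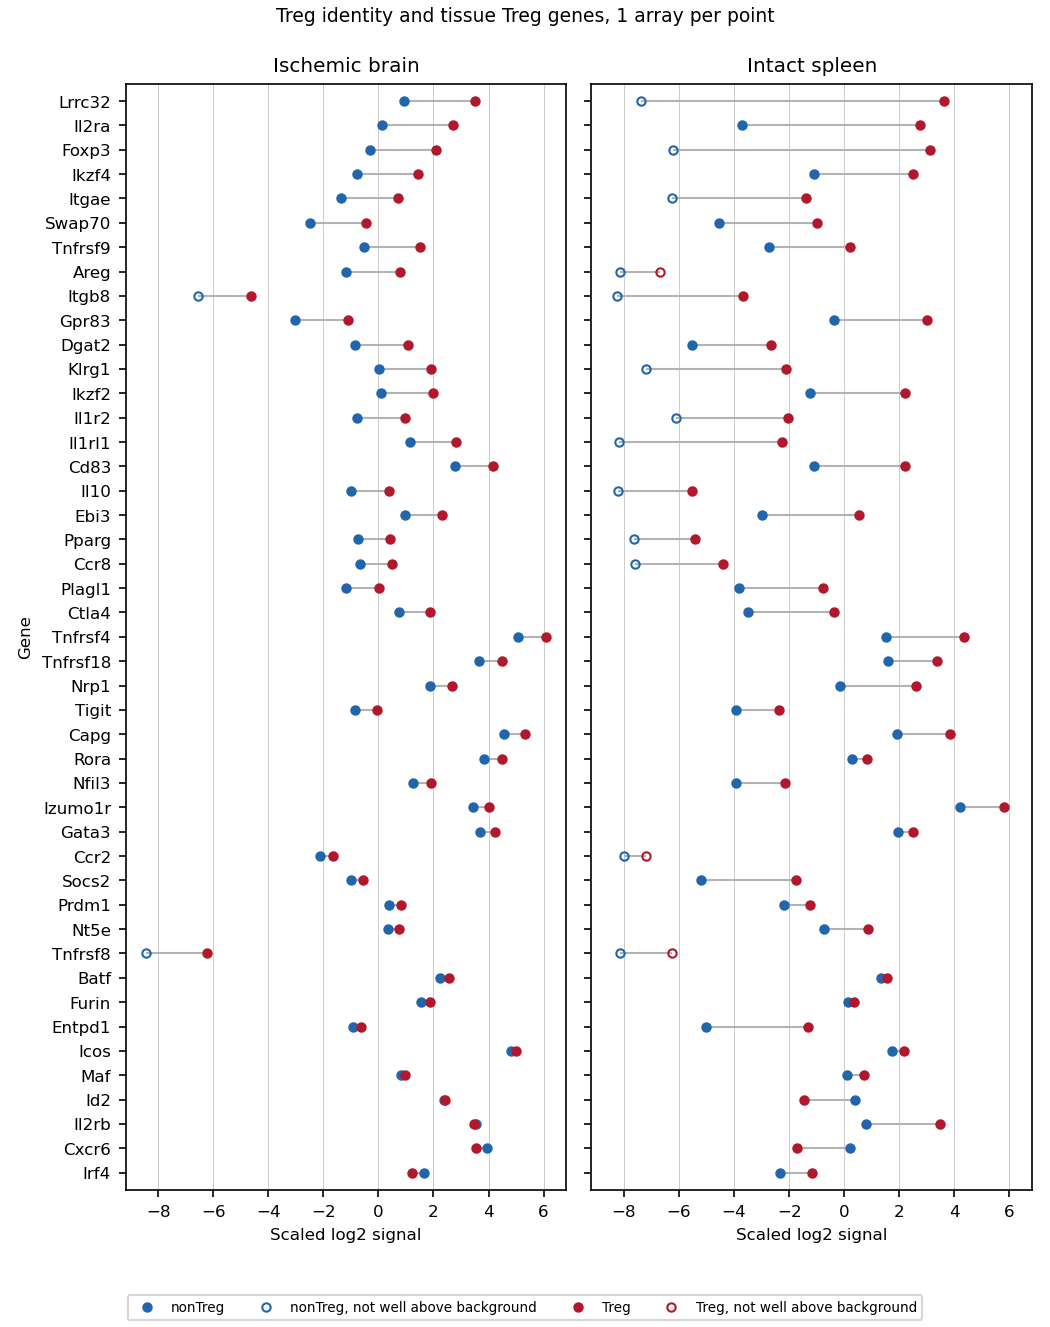
Scaled log2 signal of each compared Treg identity and tissue Treg gene in the ischemic brain (left) and the intact spleen (right), with Treg in red and nonTreg in blue, 1 array per point and open circles for signals not well above background. Genes are ordered by their brain difference. Foxp3, Lrrc32 and Itgae are open for spleen nonTreg and filled for brain nonTreg.

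Genes of tissue and effector Treg followed, with 8 of 20 compared genes 2-fold higher in brain Treg, 0 lower and a median of 0.59. Areg had signals of 1897.7 in brain Treg and 449.4 in brain nonTreg, 3.89-fold higher, and signals of 7.9 and 2.6 in spleen Treg and nonTreg, neither well above background. Il1rl1, which encodes the IL-33 receptor ST2, had signals of 7911.1 and 2269.5, 3.21-fold higher. Klrg1, a killer lectin-like receptor of effector Treg, had signals of 4150.8 and 1032.7, 3.70-fold higher. Areg and Il1rl1 were thus measured on both brain arrays and higher in Treg. The nonTreg array also held Foxp3, at 820.5 against 4717 in Treg, and which cells of that sample gave the Areg and Il1rl1 signals was not tested.

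Other members at 2-fold were Dgat2, an enzyme of triglyceride synthesis, at 1.92, the IL-1 decoy receptor Il1r2 at 1.72 and the activation marker Cd83 at 1.40. The nuclear receptor Pparg had signals of 1500.2 in Treg and 610.1 in nonTreg, 2.26-fold higher. Ccr8, the receptor for CCL1, had signals of 1575.2 and 646.5, 2.24-fold higher. Several transcription factors of the effector Treg programme stayed within 2-fold, among them Rora at 0.68, Gata3 at 0.55, Prdm1 at 0.42, Batf at 0.34, Maf at 0.14 and Irf4 at -0.41.

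TGF-beta is secreted in a latent complex that GARP, alpha-v integrins and proteases help to release. Of 22 genes of TGF-beta docking and activation compared, 5 were 2-fold higher in brain Treg and 1 was lower, with a median of 0.12. Besides Lrrc32, Mmp14, a membrane-anchored metalloprotease, had signals of 143.8 in Treg and 20.4 in nonTreg, 6.48-fold higher. Itgav, the alpha-v integrin chain, had signals of 2233.3 and 750, 2.74-fold higher. Itgb8, its beta-8 partner, had signals of 45.3 in Treg and 10.8 in nonTreg, the second not well above background, and was at least 3.84-fold higher. Thbs1, thrombospondin-1, had signals of 89.7 and 40.3, 2.05-fold higher. Mmp14 and Thbs1 were not well above background on either spleen array. Other docking and activating genes lay within 2-fold, among them Furin at 0.30, Nrros at 0.22, Ltbp3 at -0.35 and Ltbp4 at -0.87.

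The ligands and receptors of TGF-beta were mixed in direction. Tgfb1 had signals of 1129.1 in Treg and 1091.2 in nonTreg, a difference of -0.07. Tgfb3 differed by -0.86, Tgfbr1 by 0.73 and Tgfbr2 by -0.61, all within 2-fold, and a further Tgfbr1 probe gave 1.05. Tgfbr3, the co-receptor betaglycan, had signals of 72.6 and 231.4, 3.46-fold lower in Treg.

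IL-2 and its receptor pointed in opposite directions. Il2 had signals of 131.9 in Treg and 490.7 in nonTreg, 4.04-fold lower in Treg, and was not well above background on either spleen array. The signalling chains Il2rb and Il2rg differed by -0.05 and -0.12, so Il2ra was the 1 receptor chain at 2-fold. Of the 18 genes of the IL-2 receptor and STAT5 pathway compared, Il2ra was 2-fold higher and 3 were lower, with a median of -0.03. The others lower were Socs3, an inhibitor of cytokine signalling, at -1.05, and the survival gene Bcl2, with signals of 1108.4 and 2224.3, 2.18-fold lower. The STAT5 target Cish had signals of 6511.2 and 5372.3 in the brain, a difference of 0.16, and of 2481.4 and 215.4 in the spleen, a difference of 3.35.

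Inhibitory and costimulatory receptors mostly lay within 2-fold. Of 16 inhibitory receptor genes compared, Ctla4 and Havcr2 (TIM-3) were 2-fold higher in Treg and 0 were lower, with a median of 0.11. Havcr2 had signals of 416.1 and 124.9, 3.07-fold higher. Pdcd1 (PD-1) differed by 0.53, Lag3 by 0.05 and Cd160 by -0.89. Of 21 TNF family costimulation genes, 2 were higher and 1 was lower, with a median of 0.15. The shares over all compared genes were 4.61% higher and 2.86% lower. Tnfrsf9 (4-1BB) had signals of 3162.9 and 710, 4.10-fold higher, and Tnfrsf4 (OX40) had signals of 75848 and 34306.8, 2.03-fold higher. Cd40lg, the ligand by which helper T cells activate B cells and macrophages, had signals of 23.4 and 68.3, 3.18-fold lower in Treg.

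Many genes of Th1 and cytotoxic cells were lower in Treg. Of 24 compared, 9 were 2-fold lower in brain Treg and 1 was higher, with a median of -0.77. Over all compared genes, 2.86% were 2-fold lower and 4.61% higher. Ifng had signals of 5520.7 in Treg and 19037.2 in nonTreg, 3.75-fold lower in Treg, while both spleen arrays were near 200, with 204.5 in Treg and 202.4 in nonTreg. Both brain arrays thus had Ifng signals above both spleen arrays, and the brain nonTreg array had more than the brain Treg array. Tbx21 (T-bet), the transcription factor of Th1 cells, had signals of 1568.4 and 3608.2, 2.50-fold lower. Eomes, its relative in cytotoxic and memory T cells, had signals of 61.6 and 241.1, 4.26-fold lower.

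The cytotoxic granule genes did not all move one way. Gzmk, granzyme K, had signals of 137.6 in Treg and 453.4 in nonTreg, 3.58-fold lower, and Gzma had signals of 1116.3 and 2721.6, 2.65-fold lower. Gzmb, granzyme B, had signals of 3019.9 and 1870.9, a difference of 0.57 towards Treg. Fasl, the death ligand, was lower by 3.11-fold, the chemokine gene Xcl1 by 2.93-fold, Nkg7 by 2.31-fold and Ctsw by 2.06-fold. Prf1, perforin, at -0.95, Ccl5 at -0.83, Cxcr3 at -0.78 and Tnf at -0.68 were lower without reaching 2-fold. Ccl3, a chemokine of T cells and of microglia and macrophages, had signals of 1679.2 and 723, 2.14-fold higher in Treg.

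Killer lectin-like receptors, which recognise MHC class I and related molecules on NK cells and some T cells, were the list with the lowest median. Of 25 with a probe, 18 were compared, 14 were 2-fold lower in brain Treg and 1, Klrg1, was higher, with a median of -1.69. Klrd1 (CD94) had signals of 583.2 in Treg and 1611 in nonTreg, 3.00-fold lower, and Klrk1 (NKG2D) had signals of 370.2 and 1025.6, 3.01-fold lower. Klrb1c (NK1.1) had signals of 39.7 and 177.3, 4.86-fold lower. Klra16 had the lowest difference of the genes with an established symbol measured on both arrays, with signals of 68 and 442.7, 7.07-fold lower, and Klra9 and Klra4 were 5.89-fold and 5.48-fold lower. The Klra (Ly49) genes are near-identical copies, so a probe may read several of them and their values are uncertain one by one. Most of them had Treg signals under 100, where the spot error is larger, and the list's median was -0.96 with the normexp background correction.

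**Figure D3:**
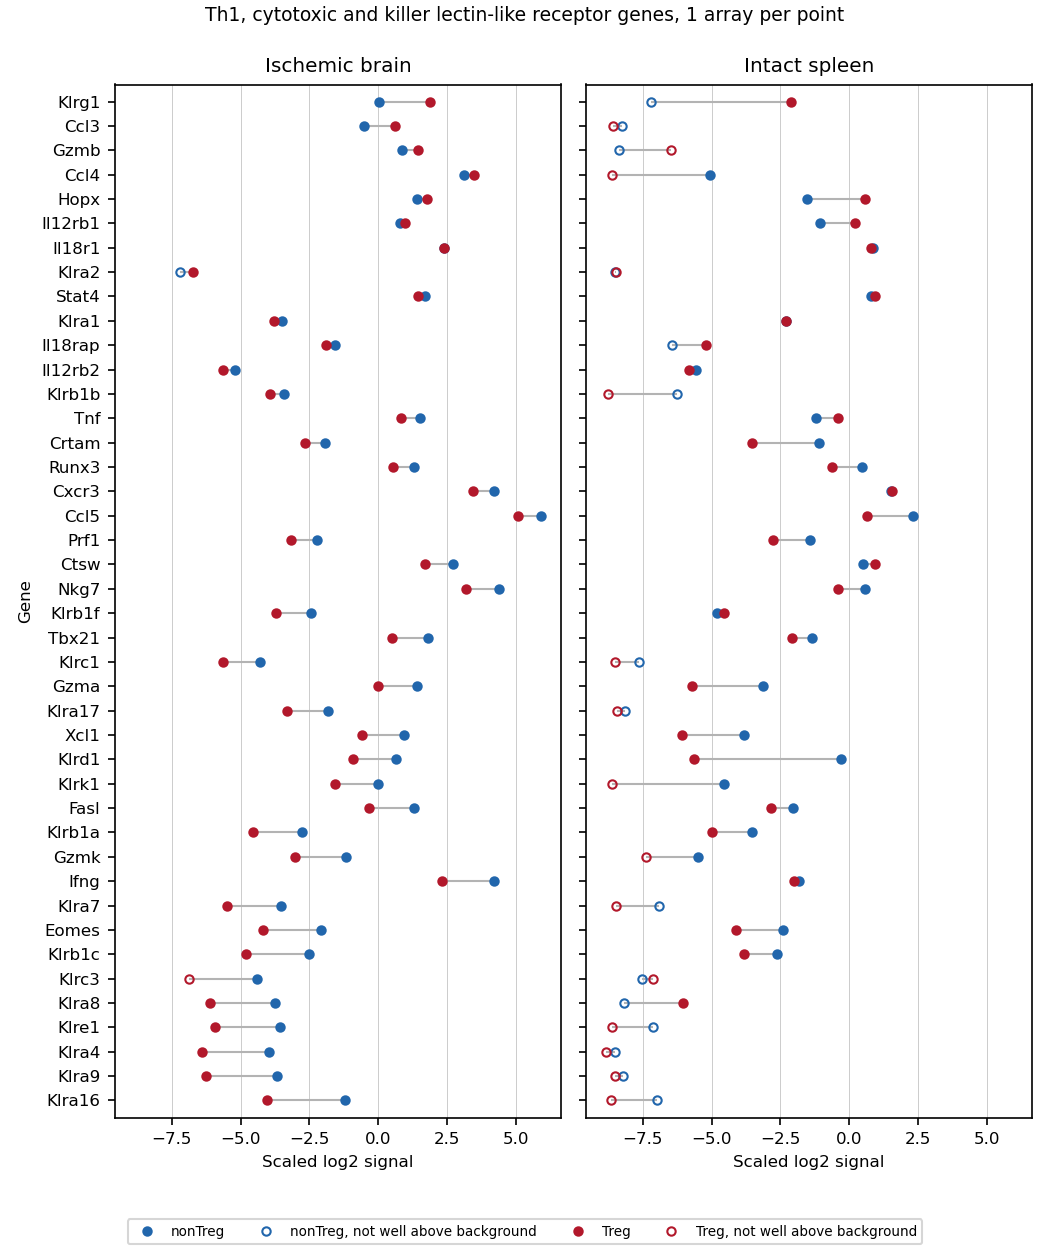
Scaled log2 signal of each compared Th1, cytotoxic and killer lectin-like receptor gene in the ischemic brain (left) and the intact spleen (right), Treg in red and nonTreg in blue, 1 array per point, open circles for signals not well above background. In the brain Klrg1, Ccl3 and Gzmb are among the genes with Treg to the right. The genes from Eomes down to Klra16 have nonTreg to the right by more than 4-fold.

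Markers of CD8 T and NK cells were lower in the Treg array beside these genes. Of 15 compared, 12 were 2-fold lower in Treg and 0 higher, with a median of -1.59, and their summed signal was 18685 in Treg against 36180 in nonTreg. Cd8a had signals of 102.3 and 297.3, 3.16-fold lower, and Cd8b1 had signals of 2276.5 and 4120.1, a difference of -0.98. On the spleen arrays of Treg and nonTreg, Cd8b1 had 961 and 995.2, while Cd8a was not well above background on either. The Cd8b1 signal is part of the sums and thus does not by itself measure CD8 T cells. Ncr1, a receptor of NK cells, had 11.4, not well above background, in Treg and 30.6 in nonTreg. The list shares Eomes, Gzma, Gzmb, Nkg7, Prf1, Xcl1 and several killer lectin-like receptors with the lists above. The part of such cells in the Th1, cytotoxic and killer lectin-like differences was not tested, and fewer cells of a type and less RNA per cell cannot be told apart in bulk RNA.

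The helper lineages other than Th1 split between the 2 populations. Il21, the cytokine of follicular helper T cells, had signals of 26.3 in Treg and 157.8 in nonTreg, 6.53-fold lower in Treg, and of 24.2 and 152.3 in the spleen. Of 16 follicular helper genes compared, 3 were 2-fold lower, Il21, Cd40lg and Sostdc1, and 0 were higher, with a median of -0.24. Bcl6, the lineage's transcription factor, differed by 0.33 and the chemokine receptor Cxcr5 by -0.78.

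Th17 and Th2 genes were each read from few members. Of 12 Th17 genes, Ccr6 was 2-fold higher and Il22 2-fold lower in Treg, with a median of -0.57. Ccr6 had signals of 6190 and 2808.3, 2.03-fold higher, and Il22 had signals of 100.4 and 211.9, 2.29-fold lower. Il17a had signals of 1898.5 and 2351.9, a difference of -0.43. Of 9 Th2 genes, 4 were higher and 0 lower, with a median of 0.57, and 3 of these 4, Areg, Il1rl1 and Il10, are also Treg genes. Il5, the eosinophil growth factor, was the fourth, with signals of 181.6 and 67.5, 2.48-fold higher, while Il4 differed by -0.23 and Il13 by 0.55.

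Genes of naive and recirculating T cells showed a small shift. Of 18 compared, 15 had a difference below 0 and the median was -0.48. By the probe used, Dapl1 was the 1 gene at 2-fold, with signals of 336.1 in Treg and 1114.3 in nonTreg, 3.60-fold lower. For Tcf7 the probe used gave -0.91 and a further probe -1.25. Ccr7, a homing receptor for lymph nodes, differed by 0.26. Among 17 chemokine receptors, 3 were 2-fold higher in Treg and 1 lower, with a median of -0.04. Cx3cr1, the fractalkine receptor, had signals of 7614.6 and 2668, 2.63-fold higher, and Ccr8 and Ccr6 were the other two. Ccr9, the gut-homing receptor, had signals of 530.5 and 1613.5, 3.31-fold lower. Among 18 integrin and adhesion genes, Itgae, Itgb8 and Itgav were higher and 0 were lower, with a median of -0.11. The alpha chains Itga4 and Itgal, at -0.37 and -0.36, and the beta chains Itgb1, Itgb2 and Itgb7, at -0.31, -0.38 and -0.03, lay within 2-fold. For Itga1 the probe used gave -0.47 and a further probe -1.16.

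Growth and repair factors leaned towards Treg. Of 26 with a probe, 16 were compared, 4 were 2-fold higher in brain Treg and 0 lower, with a median of 0.62. Over all compared genes, 4.61% were 2-fold higher. Areg is one of them. Penk, which encodes the opioid precursor proenkephalin, had signals of 7175.8 in Treg and 2703.4 in nonTreg, 2.44-fold higher, and of 1076.5 and 61.4 in the spleen. Igf1, insulin-like growth factor 1, had signals of 281.9 and 92.1, 2.82-fold higher, and Tff1, a trefoil peptide, had signals of 388.8 and 138, 2.59-fold higher. Neither was well above background on a spleen array. Pdgfb at 0.88, Csf1 at 0.74, Hbegf at 0.74 and Vegfa at 0.50 were higher without reaching 2-fold by the probe used. Further Csf1 probes gave 1.07 and 1.08. Bdnf, Gdnf, Hgf and Il33 were not well above background on either brain array.

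Among 24 serotonin and neuropeptide genes with a probe, 14 were compared, 4 were 2-fold higher in Treg and 1 was lower, with a median of 0.33. The shares over all compared genes were 4.61% higher and 2.86% lower. Htr7, a serotonin receptor, had signals of 12.2 and 9.9, neither well above background. Npsr1, the neuropeptide S receptor, had 117.6 in Treg and 2.7 in nonTreg, the second not well above background, and was at least 10.4-fold higher. Tph1, which starts serotonin synthesis, and Npy, neuropeptide Y, were at least 2.40-fold and at least 2.12-fold higher, from Treg signals of 27.1 and 24. Npsr1, Tph1 and Npy thus rest on a bound, and Tph1 was at 0 with the median over its probes, while Penk was measured on both arrays. Vipr1, a receptor for vasoactive intestinal peptide, had signals of 827 and 1976.9, 2.60-fold lower in Treg.

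Cell cycle genes leaned the same way without exception. All 21 compared had a difference above 0, with a median of 0.71, and 4 were 2-fold higher in Treg. Ccnb1, cyclin B1, had signals of 1150.1 in Treg and 458.7 in nonTreg, 2.31-fold higher. Tyms, thymidylate synthase, had signals of 3086.7 and 1337.3, 2.12-fold higher, and Kif20a and Bub1 were at 1.17 and 1.04. Mki67 had signals of 6121.5 and 3554, a difference of 0.66. In the spleen pair, 0 of 16 compared were 2-fold apart in either direction and the median was 0.25.

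Interferon response genes leaned the other way, with 18 of 20 below 0 and a median of -0.36, but 0 reached 2-fold in either direction by the probe used. A further Zbp1 probe gave -1.09, where the probe used gave -0.35. By the probe used, Oasl2 was the nearest at -0.97, followed by Isg15 at -0.69. Of 14 heat shock and stress genes compared, 1 was 2-fold higher and 1 lower, with a median of -0.30. Hspa1a, an inducible HSP70 gene, had signals of 52136.2 in Treg and 106099 in nonTreg, 2.21-fold lower, and both spleen arrays were at 2.5, not well above background. Hmox1, heme oxygenase 1, had signals of 138.5 and 31.5, 4.05-fold higher in Treg. Of 19 immediate early genes, Dusp2, a MAP kinase phosphatase, was 2-fold lower at -1.10 and 0 were higher, with a median of -0.19. Fos, Jun and Nr4a1 differed by -0.23, -0.25 and -0.10, and all 3 had brain signals above those of both spleen arrays.

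Metabolic genes showed few differences beside a small number of named ones. Of 17 glycolysis genes, 2 were 2-fold higher in Treg and 0 lower, with a median of 0.21. Over all compared genes, 4.61% were 2-fold higher and 2.86% lower. Slc16a3, a lactate exporter, had signals of 1915.9 and 622.6, 2.83-fold higher, and Hk2, hexokinase 2, had signals of 307.2 and 100.4, 2.81-fold higher. Ldha and Gapdh were at 0.33 and 0.14. Of 19 genes of lipid uptake and oxidation, Dgat2, Fabp5, Lpl and Pparg were 2-fold higher and Scd1 lower, with a median of 0.17. Fabp5, a fatty acid carrier, had signals of 5214.4 and 1667.3, 2.88-fold higher, and Cpt1a, which admits fatty acids to mitochondria, was at -0.12. Of 19 genes of extracellular ATP and adenosine, Adora3 and P2ry12 were 2-fold higher, at 1.51 and 1.07, and 0 were lower, with a median of 0.13.

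**Figure D4:**
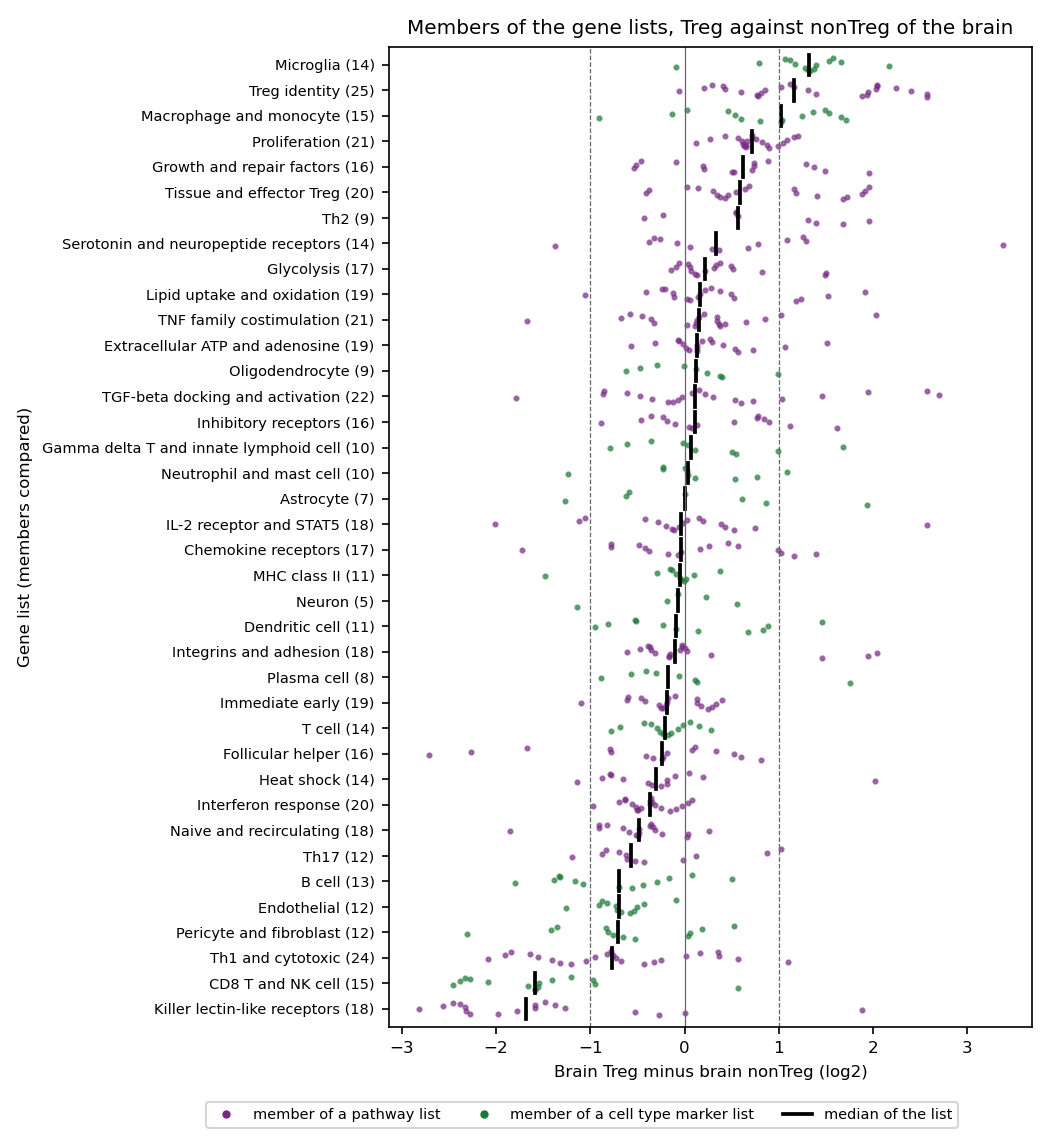
Difference of each compared gene between brain Treg and brain nonTreg (log2, x axis), 1 point per gene and 1 line per list, ordered by the median (black bar), with the number of genes compared in brackets. Purple lists are pathways, green lists are cell type markers, and dashed lines mark 2-fold. Microglia and Treg identity have the highest medians, at 1.32 and 1.16, and killer lectin-like receptors the lowest, at -1.69.

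Markers of microglia and macrophages were higher in the Treg array. Of 14 microglia markers compared, 12 were 2-fold higher in brain Treg and 0 lower, with a median of 1.32. Over all compared genes, 4.61% were 2-fold higher. The summed signal of the microglia markers was 85184 in Treg against 40439 in nonTreg. Tmem119 had signals of 1863.2 and 541.7, 3.16-fold higher, and Trem2 had signals of 7844.2 and 2418.9, 2.98-fold higher. Sall1, P2ry12 and Csf1r differed by 2.17, 1.07 and 1.28. Tmem119, Trem2, Sall1, P2ry12 and Fcrls were not well above background on either spleen array. Siglech, at -0.09, had higher signals on the spleen arrays than on the brain arrays.

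Of 15 macrophage and monocyte markers, 8 were 2-fold higher in Treg and 0 lower, with a median of 1.03. Mrc1, Adgre1 (F4/80) and Ms4a7 differed by 1.53, 1.49 and 1.71. The summed signal went the other way, 56524 in Treg against 77158 in nonTreg, and Ly6c2, which T cells also express, made up 35585.6 and 61237.9 of it. Without Ly6c2 the sums were 20938 and 15920. Microglia and macrophages are known to express Cx3cr1, Igf1, Spp1, Havcr2, Hmox1, Lpl, Adora3, P2ry12, Mmp14 and Thbs1, which were among the genes higher in Treg above. Spp1, osteopontin, had signals of 2599.6 in Treg and 558.3 in nonTreg, 4.28-fold higher. The part of microglial or macrophage RNA in the differences of these genes was not tested.

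The remaining markers split into those near 0 and those lower in Treg. Of 12 endothelial markers all lay below 0, with a median of -0.70 and summed signals of 41982 and 66929. Without Ly6c1, which T cells also express, the sums were 4730 and 6437. Cdh5, VE-cadherin, was the 1 at 2-fold, with signals of 40.6 and 89.2. Among 12 pericyte and fibroblast markers 3 were lower and 0 higher, with a median of -0.71, and Kcnj8 had signals of 52.4 and 239.7, 4.97-fold lower in Treg. Of 13 B cell markers, 6 were lower and 0 higher, with a median of -0.69 and summed signals of 7844 and 11159. Without Ly6d, the member with the lowest difference, the sums were 6342 and 6358, and 5 of 12 were lower. Ms4a1 (CD20) had signals of 65.2 and 150.1, 2.50-fold lower.

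Lists near 0 included MHC class II genes at -0.05, dendritic cells at -0.09, neutrophils and mast cells at 0.03, gamma delta T and innate lymphoid cells at 0.07, plasma cells at -0.18, oligodendrocytes at 0.12, neurons at -0.07 and astrocytes at 0.00 (medians). At 2-fold these lists held in that order 0, 1, 1, 1, 1, 0, 0 and 1 genes higher in Treg, and 1, 0, 1, 0, 0, 0, 1 and 1 genes lower. Over all compared genes, 4.61% were higher and 2.86% lower. The lists' summed signals in Treg and nonTreg were 41318 and 38759 for MHC class II, 16595 and 16347 for dendritic cells, and 15270 and 14025 for neutrophils and mast cells. For gamma delta T and innate lymphoid cells they were 45932 and 35406. For plasma cells they were 10481 and 11220, for oligodendrocytes 6591 and 8571, for neurons 1410 and 1424, and for astrocytes 2056 and 2282. No gamma delta T cell receptor gene was read, because Trdc, Tcrg-C1 and Tcrg-V4 had no probe assigned. Of the sum for gamma delta T and innate lymphoid cells, Gata3 made up 20814 and 13109.8, and Il7r 16636.3 and 19523.5. Il1rl1 made up 7911.1 and 2269.5 of it, and Gata3 and Il1rl1 are also among the Treg genes above. That list thus does not measure gamma delta T cells. Csf3r made up 14485.8 and 13270.6 of the neutrophil and mast cell sum. On the spleen arrays of Treg and nonTreg it had 21744.4 and 22672.6. The dendritic cell sum, which includes Siglech, was 22333 and 19190 on those spleen arrays. Neither sum thus measures the content of these cells. H2-Ab1, an MHC class II chain of antigen-presenting cells, had signals of 12185.6 and 11941.6 in the brain and 11.6 and 42.7 in the spleen. Gfap and Slc1a2 of astrocytes, Olig1 and Olig2 of oligodendrocytes, and Rbfox3 and Slc17a7 of neurons were not well above background on either brain array. The astrocyte median of 0.00 is the value of Aqp4, whose bound gave no fold and was set to 0. Of the other astrocyte genes compared, 3 lay above 0 and 3 below, from -1.26 to 1.94. The neuron median rests on 5 of 13 genes.

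Outside the lists, the largest differences came from dim probes. Tprg was furthest above the diagonal among genes with an established symbol measured on both arrays, with signals of 226.5 in Treg and 20.1 in nonTreg, 10.4-fold higher. Olfr965, an olfactory receptor gene, was 7.81-fold higher, Sco1, a copper chaperone of cytochrome oxidase, 6.96-fold, and Sv2c, a synaptic vesicle protein, 6.10-fold. Other probes of Sco1 and Sv2c gave -0.59 and a bound of 0.11, so these 2 values rest on 1 probe each. Among genes known by a bound, Nexmif was at least 13.3-fold higher and Evc2 at least 17.6-fold lower, from single signals of 151.1 and 169. With the median over its probes Nexmif was at 0.

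On the nonTreg side, the genes measured lowest beside Klra16, Il21 and Klra9 were Lratd1 at 5.95-fold, Cabyr at 5.84-fold, Zfp607b at 5.59-fold and Serpina9 at 5.49-fold lower, all with Treg signals under 100. Above the median signal, the lowest were Esm1, Ifng, Klk1b5, Dapl1, Ly6d and Ccr9. Esm1, endocan, a proteoglycan of activated endothelium, had signals of 258.3 in Treg and 987.1 in nonTreg, 4.15-fold lower. Ly6d, a surface protein of lymphoid cells, had signals of 1502.2 and 4800.4, 3.47-fold lower.

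Genes chosen in the spleen pair alone were then read in the brain. Of 73 genes at least 8-fold higher in spleen Treg, 70 were compared in the brain, 39 were 2-fold higher in brain Treg (55.7%) and 1 was lower, with a median of 1.11 and quartiles at 0.44 and 1.72. These counts include several predicted loci, and whether their probes read separate transcripts was not checked. All 70 differences were smaller in the brain than in the spleen, on whose arrays the genes were chosen for a large difference, so their sizes in the 2 organs cannot be compared on equal terms. Chosen the other way, by an 8-fold excess in Treg over nonTreg of the brain, there were 12 genes, and 11 of them were not well above background on either spleen array. Of those with an established symbol, Tprg was the only one measured on both brain arrays. Nexmif, Cyp11a1, Npsr1, Myl1, Rspo4 and Parva were bounds, from dim Treg signals of 95.3 to 151.1. With the median over probes, Nexmif and Myl1 came to 0. Flicr, a noncoding RNA beside Foxp3, had signals of 121.8 and 35.6 in the brain, a difference of 1.66, and one of at least 5.66 in the spleen. Rgs1, a regulator of G protein signalling, had signals of 9335.6 and 9099.6 in the brain, a difference of -0.08, and of 1832.3 and 86.6 in the spleen, a difference of 4.23. The gene below the 2-fold line in the brain was Fcmr, with signals of 57.4 and 154.2. Flicr, Rgs1 and Fcmr were chosen after their values were seen.

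Of 40 genes at least 8-fold lower in spleen Treg, 27 were compared in the brain, 7 were 2-fold lower and 2 were 2-fold higher, with a median of -0.41. Pdlim4, which had the largest measured spleen difference on that side at -7.15, had signals of 483.8 and 592.2 in the brain, a difference of -0.41. One of the 2 that were higher in brain Treg was Parva, at least 8.42-fold from a single signal of 95.3. Pdlim4 and Parva were named after their values were seen. At 2-fold, 675 genes were higher in spleen Treg, 636 of them were compared in the brain and 157 were higher there (24.7%). Read the other way, 330 of the 635 genes higher in brain Treg were compared in the spleen and the same 157 were higher there (47.6%), while 305 were not well above background on either spleen array. In the spleen pair 404 genes (3.19%) were lower in Treg, and 62 of them were also lower in brain Treg, 20.6% of the 301 spleen genes compared in the brain and 34.6% of the 179 brain genes compared in the spleen.

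**Figure D5:**
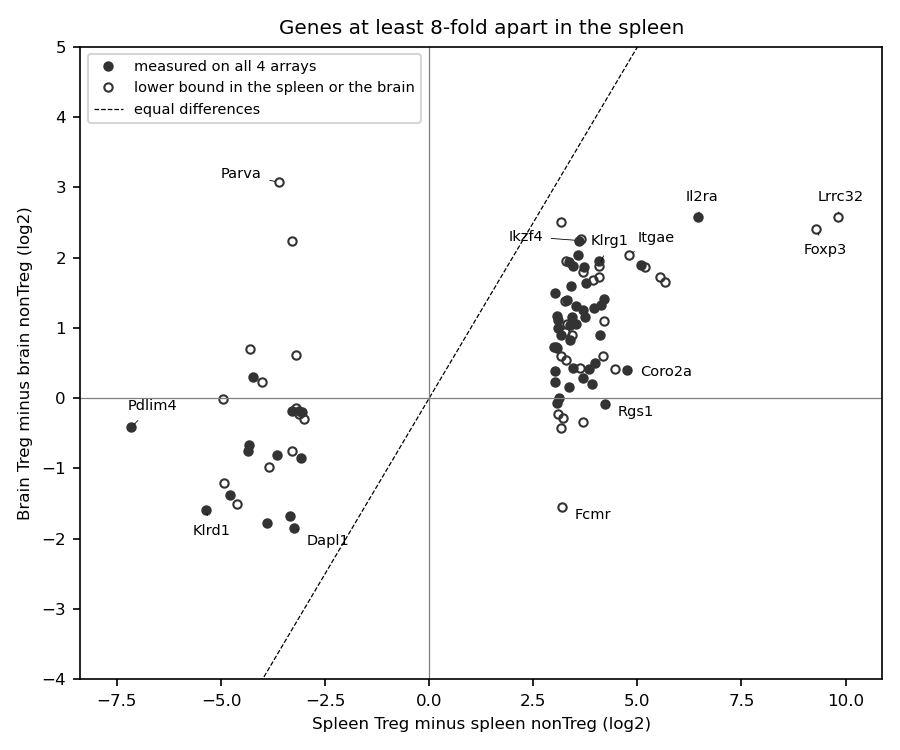
Difference between Treg and nonTreg in the spleen (log2, x axis) and in the brain (log2, y axis) for the 97 genes that were at least 8-fold apart in the spleen and compared in the brain, 1 point per gene. Open circles are lower bounds in either organ and the dashed line marks equal differences. All 70 points on the right lie below the dashed line, and Foxp3, Il2ra and Lrrc32 are the furthest to the right.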

How the data were processed

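RNA of 4 CD4 T cell samples, Treg and nonTreg of the ischemic brain and of the intact spleen, was read on 1 array each; groups and titles come from the labels. The deposited scanner files hold a processed intensity per spot, which per the file headers is linear, background-subtracted and detrended, with no scaling across arrays. The submitters' processing notes name Agilent Feature Extraction, version 10.7.1.1. The series table deposited by the authors gives a signal on a linear scale. For 99.9% of probes it equalled the intensity divided by 1 constant per array (tolerance 0.1%), and its column medians were 0.0731 and 0.0713 for brain Treg and nonTreg and 0.0686 and 0.0681 for the spleen.

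Of 59305 spots without controls, outlier flags were left out (69 in brain Treg and 109 in brain nonTreg) and none was saturated. Spots of 1 probe were averaged, giving 56605 probes, of which 30441 were well above background on at least 1 brain array. When the array's transcript accessions were matched to RefSeq genes, 32994 probes had 1 gene symbol, 0 had several and 23611 matched none, which left 22911 genes. Probes well above background were 51.9% and 50.7% on the brain arrays of Treg and nonTreg, and 49.9% and 47.6% on those of the spleen. Precision is limited by the number of arrays.

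The log2 of the intensity was scaled to each array's 75th percentile. The 38 gene lists and the comparison were chosen with earlier results of these data known. Genes were named by rule: the 12 highest and 12 lowest measured on both arrays, the 5 largest bounds each way, the 6 highest and lowest above the median signal, 24 fixed genes, and up to 6 members per list plus those at 2-fold or needed to say which were not; predicted loci were passed over. With 1 array per group no test was run. Counting was tested on simulated data. Alternatives were normexp background correction (limma 3.58.1 in R 4.3.3, offset 50, on median foreground and background because no mean signal column was found in the files), quantile normalization, other scaling points, other filters, the median over probes, and the series table. Other steps used Python 3.11.15, pandas 2.3.3 and numpy 2.4.6, with figures from matplotlib 3.10.9. The tissue arrays were not used, and some genes are not reported here.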

Additional observations from a re-analysis of the deposited data

Results flagged for a closer look

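At 2-fold, 11 genes were higher in brain Treg and lower in spleen Treg, and 10 were lower in brain Treg and higher in spleen Treg. The 11 were 3.65% of the 301 compared genes lower in spleen Treg, against 4.61% higher in brain Treg among all compared genes. The 10 were 1.57% of the 636 compared genes higher in spleen Treg, against 2.86% lower in brain Treg among all compared genes. Both shares of opposite direction were thus below those over all genes. Among the genes of opposite direction were 6 named here, of which Fcmr and Parva were chosen after their values were seen. With 1 array per group the difference between organs was not tested. Bcl2, the survival gene, differed by -1.12 between brain Treg and nonTreg and by 1.05 in the spleen, and a further Bcl2 probe gave -1.05 in the brain. Cx3cr1, the fractalkine receptor, differed by 1.39 in the brain and by a bound of -1.68 in the spleen, where Treg had 2.3, not well above background, and nonTreg 25.6. Cx3cr1 is also a microglia marker, and 12 of 14 microglia markers were 2-fold higher in brain Treg. Fhdc1, an actin regulator, differed by -2.38 in the brain, from signals of 29.4 and 141, and by 1.2 in the spleen, from 137 and 53.1. Ly6d, a lymphoid surface protein, differed by -1.80 in the brain and by 1.84 in the spleen, from spleen signals of 55.9 and 13.8. Fcmr, a receptor for IgM, differed by -1.55 in the brain, from signals of 57.4 and 154.2, and by a bound of 3.20 in the spleen. Parva, an adaptor of integrin signalling, differed by a bound of 3.07 in the brain and by a bound of -3.61 in the spleen.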

How the results depend on the processing

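The counts at 2-fold, 635 higher and 394 lower, depended on the treatment of dim probes. Normexp gave 165 and 102, no filter on dim probes 1271 and 997, probes in place of genes 1208 and 880, and genes above the median signal 115 and 40. Requiring both arrays well above background gave 469 and 257. With quantile normalization, a percentile over all probes, the median as scaling point, the median over probes and the deposited table, counts ran from 597 to 801 and from 395 to 511. Of the 149 genes at 2-fold that were fixed, picked by rule or list members, none reversed under the 8 alternatives run for single genes. These gave a value for 127 of the 149 where both arrays had to be well above background and for 149 otherwise. Myl1, Nexmif and Tph1 came to 0 with the median over probes. Fcmr, Flicr, Dntt and Klk1, named after their values were seen, were not among the 149. The 5 lists with a median beyond 2-fold kept their direction in each alternative. Under normexp 101 genes and 3 lists stayed at 2-fold, macrophages at 0.91 and killer lectin-like receptors at -0.96 being the exceptions, and under quantile normalization macrophages came to 0.997. With 1 array per group no replicate could be left out, and no paired analysis was possible because each group has 1 array. The limits are that animals, cell separation and hybridisation cannot be told apart from the populations, and that dim probes carry most large folds.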

Other observations

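One gene family outside the lists stood together and was chosen after its values were seen. Kallikreins are serine proteases, most of them glandular, and the Klk1b genes are near-identical copies, so that a probe may read several of them. Of 28 kallikrein genes with a probe, 15 were compared between the brain arrays, 13 were 2-fold lower in Treg and 0 higher, with a median of -1.77, against 2.86% of all genes lower. Klk1 had signals of 200.8 in Treg and 789.8 in nonTreg, a difference of -2.10, and was not well above background on either spleen array. Klk1b5 had signals of 499.5 and 1664.6, a difference of -1.86. Klk8 and Klk4, which are not Klk1b genes, differed by -0.03 and 0.18. As the copies may share signal, the 13 genes are not 13 separate measurements.

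Dntt, the template-independent polymerase of developing lymphocytes, was likewise named after its values were seen. It had signals of 430.8 in brain Treg and 1269.4 in brain nonTreg, a difference of -1.68, and signals of 62.5 and 567.4 in spleen Treg and nonTreg.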
